A study of Mus musculus with 6 samples.

Results

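The genes described here are 56 mouse genes that copy DNA during S phase or switch that programme on, taken by symbol from a deposited table of 34745 genes. They comprise origin licensing factors, the replicative helicase and its activators, the sliding clamp and its loader, polymerases and primase, factors that bind single strands and join fragments, enzymes of nucleotide supply, cyclin E with Cdk2, E2F transcription factors, and proteins that restore chromatin, protect forks or bind histone mRNA. All 56 were measured and all passed the filter on low counts, with between 20 counts (E2f2 in its lowest library) and 3563 counts (Rrm1 in its highest) per library. The cells were primary macrophages of wild-type mice, grown from bone marrow with M-CSF at 20 ng/ml. The 3 libraries of the inhibitor group came from cells given an inhibitor of the lysine acetyltransferase KAT8 and then R848, and the 3 libraries of the DMSO group from cells given the solvent DMSO and then R848. R848 (resiquimod) activates TLR7, an endosomal sensor of single-stranded RNA, and both groups received it at 100 ng/ml for 6 h. The sources used here give no name, dose or duration for the inhibitor and do not say whether replicates came from separate animals, so the p-values reflect only how far these libraries vary, and that variation may be technical.

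Replication is prepared in G1 phase, when the origin recognition complex, CDC6 and CDT1 load rings of MCM proteins onto DNA, and geminin later blocks CDT1 so that origins are loaded once per cycle. At the start of S phase, CDC45 and the GINS complex turn the ring into an active helicase. Polymerase alpha with primase lays down primers, and polymerase delta and polymerase epsilon copy the strands on a clamp of PCNA. Many of these genes are transcribed at the G1 to S boundary under E2F factors, and macrophages grown in M-CSF include cycling cells. Mature macrophages divide little once the growth signal ends or an inflammatory stimulus arrives.

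E2F factors bind short GC-rich motifs near transcription start sites, and the promoters are shown because so many of these genes moved in the same direction. RefSeq promoter windows (GRCm38.p6, from 250 bases before to 50 after each start) were matched for 47 of the 56 genes, with 58 windows in all. The E2F motifs TTTCGCGC, TTTGGCGC or TTTCCCGC, searched on both strands, were found in 21 of 58 windows (36.2%), against 1.84% of all 32851 windows of the same length in the table. A CCAAT box, the core of the NF-Y site, was in 62.1% of the windows of these genes and in 37.4% of all windows. The CHR motif TTTGAA, typical of G2 and M phase genes, was in 15.5% and 17.9%. Windows of 5 genes that fell with the inhibitor are printed 5′ to 3′ on the strand of the gene, with E2F matches in capitals, followed by that of Orc2, which rose and has no such match.
Mcm6, chr1:128359656-128359955, minus strand: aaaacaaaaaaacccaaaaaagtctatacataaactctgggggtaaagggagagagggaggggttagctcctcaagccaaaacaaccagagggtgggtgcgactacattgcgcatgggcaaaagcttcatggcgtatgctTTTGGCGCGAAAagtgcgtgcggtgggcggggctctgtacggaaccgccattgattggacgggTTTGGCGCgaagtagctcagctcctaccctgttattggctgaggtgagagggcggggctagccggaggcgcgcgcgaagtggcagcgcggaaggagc
Mcm7, chr5:138171834-138172133, minus strand: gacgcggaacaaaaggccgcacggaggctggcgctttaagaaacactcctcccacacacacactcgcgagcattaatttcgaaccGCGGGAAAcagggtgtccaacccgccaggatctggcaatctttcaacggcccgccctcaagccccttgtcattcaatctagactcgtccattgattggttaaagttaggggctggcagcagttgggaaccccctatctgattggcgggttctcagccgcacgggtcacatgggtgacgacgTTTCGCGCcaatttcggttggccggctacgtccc
Cdc6, chr11:98907901-98908200, plus strand: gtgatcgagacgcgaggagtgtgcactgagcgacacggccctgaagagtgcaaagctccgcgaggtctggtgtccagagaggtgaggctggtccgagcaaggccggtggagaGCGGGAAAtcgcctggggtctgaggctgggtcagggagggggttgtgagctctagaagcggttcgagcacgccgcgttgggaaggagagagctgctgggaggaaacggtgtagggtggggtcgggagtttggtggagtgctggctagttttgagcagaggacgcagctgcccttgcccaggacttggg
Clspn, chr4:126556730-126557029, plus strand: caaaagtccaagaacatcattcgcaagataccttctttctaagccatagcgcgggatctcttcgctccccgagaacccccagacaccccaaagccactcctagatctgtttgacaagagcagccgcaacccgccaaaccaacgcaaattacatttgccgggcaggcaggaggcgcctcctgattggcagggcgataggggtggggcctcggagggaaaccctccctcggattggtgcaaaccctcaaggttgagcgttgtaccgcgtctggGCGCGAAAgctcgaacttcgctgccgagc
E2f7, chr10:110745189-110745488, plus strand: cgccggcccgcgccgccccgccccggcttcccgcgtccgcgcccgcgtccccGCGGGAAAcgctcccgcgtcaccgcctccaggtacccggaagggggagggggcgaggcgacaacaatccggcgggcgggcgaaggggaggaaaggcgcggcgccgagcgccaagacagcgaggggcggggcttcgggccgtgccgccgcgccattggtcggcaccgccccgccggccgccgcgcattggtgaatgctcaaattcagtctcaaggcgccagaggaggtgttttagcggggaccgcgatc
Orc2, chr1:58505060-58505359, minus strand: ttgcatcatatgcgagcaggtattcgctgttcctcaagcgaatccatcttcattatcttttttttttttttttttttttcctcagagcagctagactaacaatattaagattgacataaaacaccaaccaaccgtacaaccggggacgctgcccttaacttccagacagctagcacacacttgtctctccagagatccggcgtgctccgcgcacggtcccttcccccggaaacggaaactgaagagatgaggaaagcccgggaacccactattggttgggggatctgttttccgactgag
The Mcm6 window holds a match on each strand that overlap each other, starting 110 and 106 bases before the start site, and another match 47 bases before it. In the Mcm7 window the matches begin 165 bases before and 17 bases after the start site, the second of them sharing a base with a CCAAT box. Of the 21 genes with an E2F match, 14 were lower with the inhibitor, none was higher and 7 did not pass. Of the 26 matched genes without those letters, 16 were lower, 2 were higher and 8 did not pass, so genes with and without a match fell. Such a match is a description of letters, not of binding, and its part in the differences was not tested.

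With the inhibitor, 36 of the 56 genes were lower, 3 were higher and 17 did not pass (edgeR quasi-likelihood test, Benjamini-Hochberg adjusted p under 0.05 over 13815 genes). The share that fell, 64.3%, stands beside 26.5% of all tested genes, and the share that rose, 5.36%, beside 24.9%. Their median log2 fold change was −0.43, against 0.01 for all tested genes. At least 2-fold falls were seen for Cdc6, Rrm1, Rrm2, Tk1, Ccne2 and Uhrf1, which is 10.7% of the 56 against 6.86% of all genes. The 3 inhibitor libraries did not overlap the 3 DMSO libraries for 44 of the 56 (78.6%, against 60.6% of all genes), with 39 of them lower and 5 higher. In bulk RNA, fewer cells in S phase and less of these mRNAs per cell cannot be told apart. Levels are CPM, counts scaled to a common library size with TMM factors, and library totals ranged from 18441352 to 25089320 counts. When libraries were scaled by their totals without TMM, the median over all genes shifted by 0.11 on the log2 scale, and 63.2% of all called genes were higher, against 48.4% with TMM. With totals, 29 of the 56 were lower (51.8%, against 20.6% of all tested genes) and 7 higher (12.5%, against 35.4%).

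**Figure D1:**
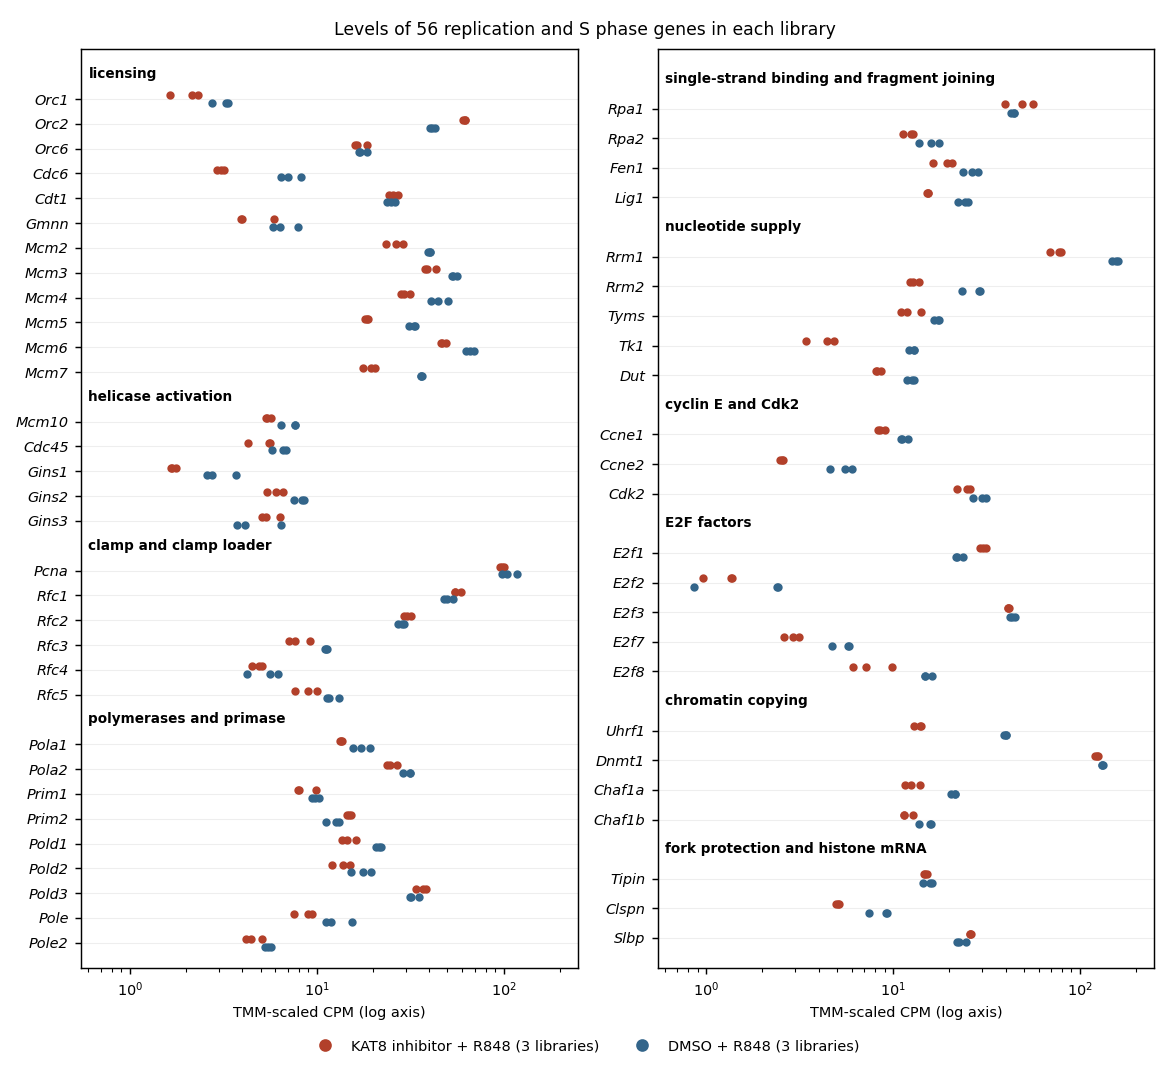
Each row is a gene, with the 3 libraries of the inhibitor group (upper points, red) and the 3 of the DMSO group (lower points, blue) placed by TMM-scaled CPM on a log axis. Nucleotide supply genes show a clear gap between the groups, while the clamp loader genes Rfc2 and Rfc4 overlap.

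Markers of other cells were measured in the same libraries. Of 11 stromal and fibroblast markers 9 were lower with the inhibitor, and their summed level was 2798 to 2994 CPM in the inhibitor libraries, against 6127 to 6994 CPM in the DMSO libraries, with none at 0. The most abundant were Sparc, a secreted matrix protein, at 816 ± 34.6 CPM with the inhibitor and 1611 ± 38.1 CPM with DMSO, and Col1a2, a chain of type I collagen, at 669 ± 20.2 CPM with the inhibitor and 1699.9 ± 115 CPM with DMSO (SD, n = 3 each). Pdgfra and Lum of the same list did not pass. Pdgfra had 441 ± 20.5 CPM with the inhibitor and 418 ± 30.3 CPM with DMSO, and Lum 10.3 ± 1.82 and 13.2 ± 1.32 CPM. Of 8 macrophage markers 6 were lower (summed level 7558 to 7635 CPM with the inhibitor and 11855 to 13527 CPM with DMSO), the most abundant being Lyz2 at 4188 ± 37.1 CPM with the inhibitor and 8591 ± 632 CPM with DMSO. Of the other macrophage markers, Cd68 had 1672 ± 35.6 CPM with the inhibitor and 1503 ± 178 CPM with DMSO and Csf1r 463 ± 4.895 and 473 ± 30.2 CPM, and neither passed. Of 6 progenitor markers, 5 were tested and 3 were lower (summed level 73.8 to 84.1 CPM, against 124 to 131 CPM with DMSO). Sox4, the most abundant, had 50.9 ± 2.40 CPM with the inhibitor and 61.7 ± 2.84 CPM with DMSO. Cd34 fell most, with 13.1 ± 1.28 and 49.2 ± 1.17 CPM, and Gata2 and Hoxa9 did not pass. Neutrophil markers (S100a8 the most abundant) summed to 2.07 to 2.93 CPM with the inhibitor and 6.41 to 7.16 CPM with DMSO, dendritic cell markers (Zbtb46) to 9.37 to 10.4 and 15.6 to 17.6 CPM, and erythroid and megakaryocyte markers (Pf4) to 12.03 to 13.6 and 14.9 to 18.4 CPM. Zbtb46 (means 9.64 and 16.8 CPM) and Pf4 (11.9 and 15.6 CPM) made up most of their sums. Flt3 (0.239 and 0.0289 CPM), Clec9a and Xcr1 of dendritic cells and Klf1 of erythroid cells (0.200 and 0.0184 CPM) went the other way at low counts. None of these was tested. Itga2b of the megakaryocyte list (0.851 and 1.14 CPM) did not pass. Mast cell and basophil markers (Kit) summed to 0.319 to 0.770 CPM with the inhibitor and 1.49 to 2.01 CPM with DMSO. T and NK cell markers summed to 0.116 CPM in 1 inhibitor library and to 0 in the other libraries. Ly6g, S100a9, Elane, Ngp and Retnlg of neutrophils, Hbb-bs and Hba-a1 of erythroid cells, Cd3d, Cd8a, Ncr1 and Nkg7 of T and NK cells, Siglech of dendritic cells and Fcer1a of mast cells were at 0 in all 6 libraries. The part of stromal cells, which can also divide, in the falls described here was not tested.

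Licensing genes were mostly lower. Of 12, 9 fell, Orc2 rose, and Orc6 and Cdt1 did not pass (median log2 fold change −0.58). Cdc6, the ATPase that brings the MCM ring to origins, had 3.08, 2.92 and 3.19 CPM in the inhibitor libraries and 7.01, 6.43 and 8.195 CPM in the DMSO libraries. The groups were far apart, and Cdc6 fell 2.35-fold (log2 fold change −1.23, SE 0.14, adjusted p = 0.000141). Orc1, the subunit of the origin recognition complex whose level varies with the cycle, had 2.31, 1.64 and 2.16 CPM with the inhibitor and 3.37, 2.76 and 3.27 CPM with DMSO, and fell by 0.62 on the log2 scale (adjusted p = 0.0233). Its call was lost without DMSO replicate 1 (adjusted p = 0.06), DMSO replicate 3 (0.0672) or inhibitor replicate 2 (0.0699). The range was 0.0223 to 0.0699 over the settings that had a value for Orc1, which leaves out the minimum mean of 5 CPM. Exons of Gm12743 on the opposite strand cover 10.8% of Orc1.

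Orc2, a core subunit of the same complex, went the other way. It had 61.8, 62.1 and 60.7 CPM in the inhibitor libraries and 40.4, 41.5 and 42.8 CPM in the DMSO libraries, a rise of 0.57 on the log2 scale (SE 0.049, adjusted p = 3.78e-05). The lowest inhibitor library was far above the highest DMSO library, and the ratio of Orc2 to Orc1 per kilobase of exon was 24.1, 34.2 and 25.4 with the inhibitor, against 10.8, 13.6 and 11.8 with DMSO. Exons of Nif3l1 on the opposite strand cover 29.8% of the exon length of Orc2. Nif3l1 was itself higher, at 25.5 ± 0.12 CPM with the inhibitor and 21.5 ± 2.55 CPM with DMSO (SD, n = 3 each), and whether strand was used in counting is not given in the sources used here. Orc6 had 16.1, 16.4 and 18.6 CPM with the inhibitor and 16.7, 16.9 and 18.7 CPM with DMSO, so its groups overlapped. Of 3 further subunits outside the 56, Orc5 rose (0.59, adjusted p = 0.000596), Orc4 rose (0.21, adjusted p = 0.0338) and Orc3 did not pass (0.12, adjusted p = 0.152). The call of Orc4 was lost with DESeq2 (adjusted p = 0.0596) and without DMSO replicate 2 (0.0557), DMSO replicate 3 (0.12), inhibitor replicate 1 (0.0809) or inhibitor replicate 2 (0.111), over a range of 0.00521 to 0.12.

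Cdt1 did not pass, while geminin (Gmnn), its inhibitor, fell. Cdt1 had 27.3, 25.7 and 24.4 CPM with the inhibitor and 23.7, 26.3 and 24.9 CPM with DMSO, with overlapping groups and a log2 fold change of 0.044 (adjusted p = 0.635). Gmnn had 3.97, 3.91 and 5.93 CPM with the inhibitor and 5.85, 6.34 and 7.89 CPM with DMSO, and the fall passed narrowly (log2 fold change −0.55, SE 0.20, adjusted p = 0.045). Inhibitor replicate 3 lay within the DMSO range of Gmnn. The call was lost without DMSO replicate 2 (adjusted p = 0.0708), DMSO replicate 3 (0.148), inhibitor replicate 1 (0.132) or inhibitor replicate 2 (0.134), and with library totals (0.0914), over a range of 0.00861 to 0.148. The ratio of Cdt1 to Gmnn per kilobase was 3.21, 3.06 and 1.92 in the inhibitor libraries and 1.89, 1.94 and 1.47 in the DMSO libraries, so the third inhibitor library overlapped the DMSO libraries.

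All 6 subunits of the Mcm2 to Mcm7 ring, which unwinds DNA ahead of the fork, fell. Their summed level was 189, 174 and 180 CPM in the inhibitor libraries, against 282, 269 and 273 CPM in the DMSO libraries, or 65.9% of the DMSO mean. The groups overlapped for no subunit. Mcm7 fell most, with 20.5, 17.6 and 19.5 CPM with the inhibitor and 35.9, 36.2 and 36.5 CPM with DMSO (log2 fold change −0.92, SE 0.071, adjusted p = 2.17e-05). Mcm5 had 18.7, 18.4 and 18.2 CPM with the inhibitor and 33.4, 31.1 and 33.2 CPM with DMSO (log2 fold change −0.82, SE 0.062). Mcm3 fell least, with 43.4, 38.97 and 37.8 CPM with the inhibitor and 56.1, 53.5 and 53.1 CPM with DMSO (log2 fold change −0.44, SE 0.065, adjusted p = 0.000778). Mcm2, Mcm4 and Mcm6 lay between them, at −0.61, −0.61 and −0.48 on the log2 scale.

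Although the proteins form a ring with equal numbers of each subunit, the mRNAs were not equal. Per kilobase of exon, Mcm3 made up 25.5 ± 1.19% of the 6 mRNAs in the inhibitor libraries and 22.8 ± 0.242% in the DMSO libraries (SD, n = 3 each). Mcm7 made up 10.4 ± 0.457% with the inhibitor and 12.9 ± 0.44% with DMSO, and Mcm5 11.1 ± 0.323% and 12.9 ± 0.328%. Mcm6 made up 24.2 ± 0.466% with the inhibitor and 22.4 ± 1.16% with DMSO. For these 4 subunits the shares did not overlap between the groups. The margin was very narrow for Mcm6, at 23.77% in the lowest inhibitor library and 23.73% in the highest DMSO library. Mcm2, the least abundant per kilobase, held 9.02 ± 0.653% with the inhibitor and 9.11 ± 0.382% with DMSO. These shares rest on merged exon lengths of the annotation, and a change in the transcript forms used was not measured.

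**Figure D2:**
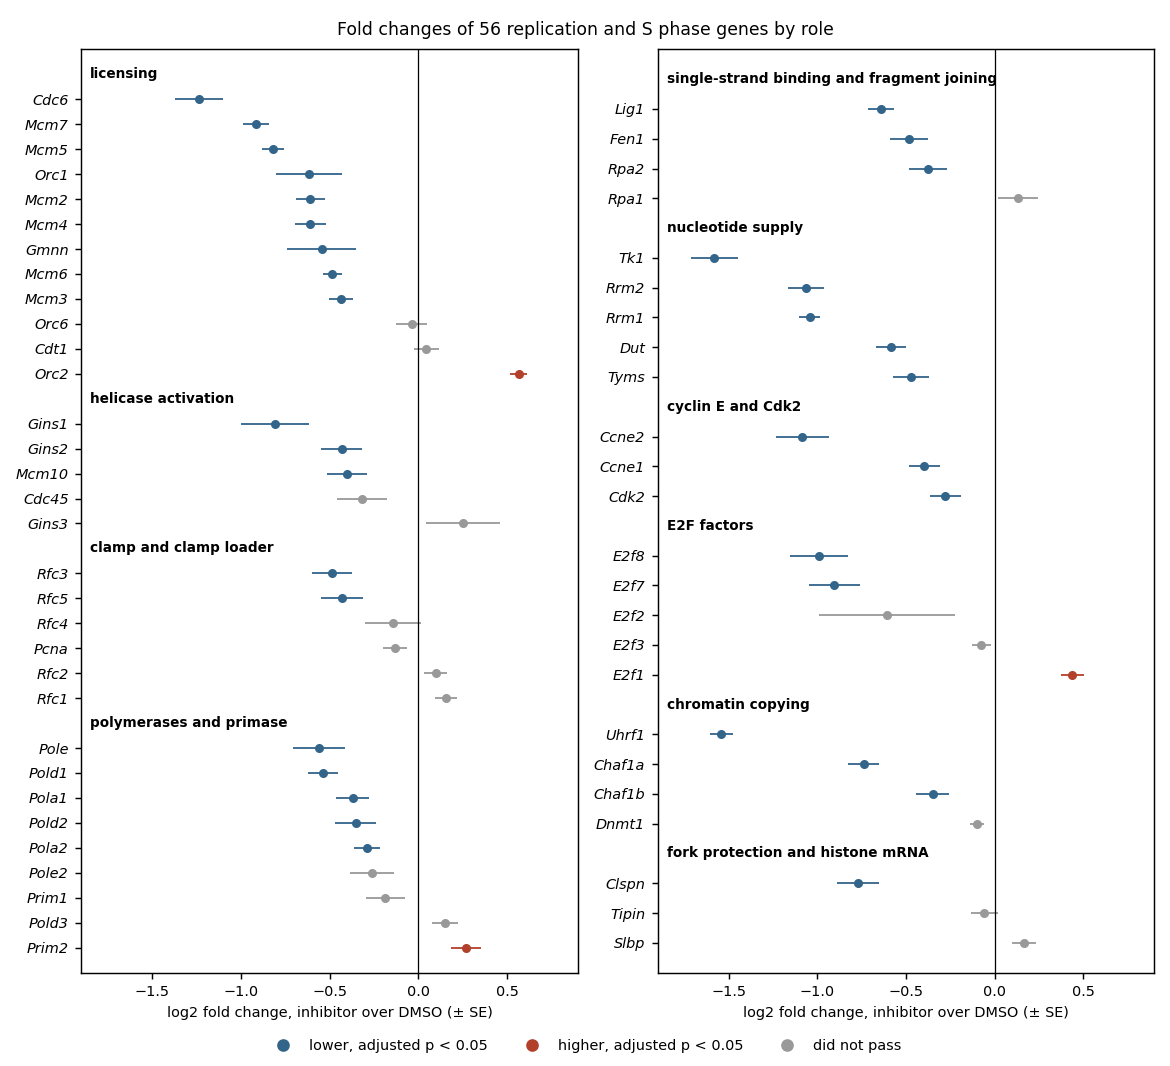
Points give the log2 fold change of each gene, inhibitor over DMSO, with bars of 1 SE, sorted within each role. Blue genes were lower, red genes higher and grey genes did not pass; Tk1 (−1.58) and Uhrf1 (−1.54) lie farthest to the left, and Orc2 (0.57) farthest to the right.

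Of 5 genes that activate the loaded helicase, 3 fell. Gins1, a GINS subunit, had 1.77, 1.68 and 1.66 CPM with the inhibitor and 3.700, 2.76 and 2.57 CPM with DMSO, without overlap (log2 fold change −0.81, SE 0.19, adjusted p = 0.00787). Gins2 (−0.43) and Mcm10 (−0.40), which acts when the helicase starts to unwind, also fell. Gins2 shares 67.3% of its exon length with Gse1 on the opposite strand, and Gse1 was lower too (log2 fold change −0.27, adjusted p = 0.0226). Its call was lost without inhibitor replicate 1 (adjusted p = 0.053, range 0.0126 to 0.053). That of Mcm10 was lost without DMSO replicate 2 (0.0571), inhibitor replicate 2 (0.0553) or inhibitor replicate 3 (0.0523), and with library totals (0.0609), over a range of 0.0126 to 0.0609. Cdc45 had 5.54, 5.59 and 4.27 CPM with the inhibitor and 6.63, 5.78 and 6.84 CPM with DMSO and did not pass (log2 fold change −0.32, adjusted p = 0.0944). Gins3 had 6.39, 5.11 and 5.35 CPM with the inhibitor and 6.41, 3.75 and 4.14 CPM with DMSO. DMSO replicate 1 was the highest of the Gins3 values, and without it Gins3 was higher with the inhibitor (log2 fold change 0.50, adjusted p = 0.0309, range 0.0309 to 0.717).

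Of 6 genes for the clamp and its loader, 2 fell (33.3%, near the 26.5% of all tested genes) and 4 did not pass. Their median log2 fold change was −0.14, but −0.039 without DMSO replicate 2, −0.22 without DMSO replicate 3 and −0.027 with library totals. Pcna, the sliding clamp that holds polymerases on DNA, had 97.7, 95.96 and 100.1 CPM with the inhibitor and 98.4, 118 and 105 CPM with DMSO. Its groups overlapped through DMSO replicate 1, and it did not pass (log2 fold change −0.13, SE 0.068, adjusted p = 0.14). Without that library it was lower (−0.19, adjusted p = 0.0292, range 0.0292 to 0.8). Among the 56 genes Pcna was the most abundant per kilobase, at 40.8 ± 0.874 CPM per kilobase with the inhibitor and 44.6 ± 4.24 with DMSO (SD, n = 3 each), beside medians of 3.23 and 4.46 over the 56. Pcna-ps1 and Pcna-ps2 in the annotation are named as its pseudogenes, and the treatment of reads that match both is not given in the sources used here.

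Of the loader subunits, Rfc3 and Rfc5 were the falls. Rfc3 had 9.24, 7.63 and 7.13 CPM with the inhibitor and 11.1, 11.4 and 11.2 CPM with DMSO and fell (log2 fold change −0.49, SE 0.11, adjusted p = 0.00736). Rfc5 had 9.97, 8.94 and 7.67 CPM with the inhibitor and 13.1, 11.3 and 11.6 CPM with DMSO and also fell (log2 fold change −0.43, adjusted p = 0.0157). Rfc1, the largest subunit, had 54.8, 54.7 and 58.9 CPM with the inhibitor and 53.7, 47.7 and 49.7 CPM with DMSO. These values did not overlap but did not reach the threshold (log2 fold change 0.16, adjusted p = 0.0627), and Rfc1 was higher without DMSO replicate 1 (adjusted p = 0.0248) or with library totals (0.0122), over a range of 0.0122 to 0.193. Rfc2 (0.10, adjusted p = 0.234) and Rfc4 (−0.14, adjusted p = 0.481) overlapped between groups. Rfc2 had 31.8, 30.3 and 29.1 CPM with the inhibitor and 27.3, 29.3 and 28.6 CPM with DMSO. It was higher with library totals (adjusted p = 0.02, range 0.02 to 0.505). Exons of Lat2 cover 15.1% of Rfc2, those of Eif4a2 12.7% of Rfc4 and those of Wsb2 10.7% of Rfc5, each on the opposite strand. Eif4a2 was itself higher (0.42, adjusted p = 0.000302) and Wsb2 lower (−0.34, adjusted p = 0.00138).

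Of 9 genes for polymerases and primase, 5 fell, Prim2 rose and 3 did not pass, with a median log2 fold change of −0.29. The catalytic subunits of the polymerases all fell. Pold1, of polymerase delta, had 13.7, 14.5 and 16.2 CPM with the inhibitor and 20.7, 22.2 and 21.6 CPM with DMSO (log2 fold change −0.54, SE 0.083, adjusted p = 0.000927). Pole, of polymerase epsilon, had 9.01, 7.55 and 9.46 CPM with the inhibitor and 15.5, 11.9 and 11.2 CPM with DMSO (log2 fold change −0.56, SE 0.15, adjusted p = 0.0126). Pola1, of polymerase alpha, had 13.3, 13.5 and 13.6 CPM with the inhibitor and 17.3, 15.7 and 19.3 CPM with DMSO (log2 fold change −0.37, SE 0.091, adjusted p = 0.00963). In each of these 3 genes the highest inhibitor library lay below the lowest DMSO library.

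Of the accessory subunits, 2 fell. Pola2, the second subunit of polymerase alpha, fell by 0.29 on the log2 scale, a call lost with library totals (adjusted p = 0.0673, range 0.0077 to 0.0673). Pold2 had 15.02, 13.9 and 12.1 CPM with the inhibitor and 15.2, 19.5 and 17.7 CPM with DMSO, and fell by 0.35 (adjusted p = 0.0332). Its call was lost without DMSO replicate 2 (0.109), DMSO replicate 3 (0.077), inhibitor replicate 2 (0.0749) or inhibitor replicate 3 (0.107), and with library totals (0.0892), over a range of 0.0133 to 0.109. Pold3 had 38.4, 37.1 and 33.9 CPM with the inhibitor and 31.4, 31.95 and 35.3 CPM with DMSO. Its groups overlapped (log2 fold change 0.15, adjusted p = 0.126), and it was higher with library totals (0.0155, range 0.0155 to 0.321). Pole2 (−0.26, adjusted p = 0.111) did not pass, although its groups did not overlap.

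Of the primase subunits, which lay down the RNA primer, Prim2 rose and Prim1 did not pass. Prim1, the catalytic subunit, had 9.86, 8.03 and 7.96 CPM with the inhibitor and 10.2, 9.79 and 9.46 CPM with DMSO (log2 fold change −0.19, adjusted p = 0.195). Prim2 had 14.8, 15.3 and 14.5 CPM with the inhibitor and 11.2, 12.7 and 13.1 CPM with DMSO, without overlap (log2 fold change 0.27, SE 0.086, adjusted p = 0.0304). Its call was lost with DESeq2 (adjusted p = 0.0724) and in 5 of the 6 fits that leave out a library, namely DMSO replicate 1 (0.0803), DMSO replicate 2 (0.0559) and inhibitor replicates 1 (0.0716), 2 (0.0933) and 3 (0.06), over a range of 0.00485 to 0.0933.

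Lig1, the ligase that seals Okazaki fragments on the lagging strand, had 15.4, 15.4 and 15.2 CPM in the inhibitor libraries and 25.01, 22.3 and 24.4 CPM in the DMSO libraries. The groups were well separated (log2 fold change −0.64, SE 0.071, adjusted p = 0.000151). Fen1, the nuclease that trims the flaps before ligation, had 20.6, 16.4 and 19.5 CPM with the inhibitor and 23.6, 28.6 and 26.5 CPM with DMSO and fell (log2 fold change −0.48, adjusted p = 0.00571). The antisense gene Gm10143 covers 78.8% of the Fen1 exons, but was itself counted at 0.105 ± 0.0787 CPM with the inhibitor and 0.0144 ± 0.0249 CPM with DMSO (SD, n = 3 each). Rpa2 and Rpa1 encode subunits of the complex that coats single-stranded DNA. Rpa2 had 12.7, 12.5 and 11.3 CPM with the inhibitor and 13.7, 15.9 and 17.7 CPM with DMSO and fell (log2 fold change −0.37, adjusted p = 0.0185), a call lost without DMSO replicate 3 (0.0615) or inhibitor replicate 3 (0.066) and with library totals (0.054), over a range of 0.00655 to 0.066. Rpa1 had 39.5, 48.7 and 55.7 CPM with the inhibitor and 44.3, 42.9 and 44.2 CPM with DMSO. Its inhibitor libraries lay on both sides of the DMSO libraries, and without inhibitor replicate 1 it was higher (log2 fold change 0.25, adjusted p = 0.031, range 0.031 to 0.95).

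All 5 genes of nucleotide supply fell, with a median log2 fold change of −1.04. Their summed level was 119, 105 and 115 CPM in the inhibitor libraries, against 231, 214 and 227 CPM in the DMSO libraries, or 50.4% of the DMSO mean. Tk1, the thymidine kinase of the salvage pathway, had 4.43, 3.43 and 4.85 CPM with the inhibitor and 12.9, 12.2 and 12.99 CPM with DMSO and fell 2.99-fold (log2 fold change −1.58, SE 0.13, adjusted p = 3.3e-05). Rrm1 and Rrm2 encode the large and the small subunit of ribonucleotide reductase, the enzyme that makes deoxyribonucleotides. Rrm1 had 79.1, 69.00 and 76.8 CPM with the inhibitor and 159, 149 and 155 CPM with DMSO, a gap much wider than the spread in either group (log2 fold change −1.04, SE 0.060, adjusted p = 4.27e-06). Rrm2 had 12.7, 12.3 and 13.8 CPM with the inhibitor and 29.1, 23.5 and 28.7 CPM with DMSO (log2 fold change −1.06, SE 0.10, adjusted p = 6.08e-05). The ratio of Rrm1 to Rrm2 per kilobase was 1.46 ± 0.0902 with the inhibitor and 1.45 ± 0.13 with DMSO (SD, n = 3 each), with overlapping libraries.

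Tyms, which makes thymidylate from dUMP, had 14.1, 11.9 and 11.03 CPM with the inhibitor and 17.6, 16.5 and 17.3 CPM with DMSO (log2 fold change −0.47, SE 0.10, adjusted p = 0.0053). The annotation has a pseudogene named Tyms-ps. Dut, the enzyme that removes dUTP and yields dUMP, had 8.62, 8.15 and 8.17 CPM with the inhibitor and 11.9, 12.5 and 12.99 CPM with DMSO (log2 fold change −0.59, SE 0.085, adjusted p = 0.00068). Neither gene had an overlap between groups. Among 12 further genes of nucleotide supply, 6 fell (50%, against 26.5% of all tested genes), 2 rose (16.7%, against 24.9%) and 4 did not pass. Samhd1, a hydrolase that breaks deoxyribonucleotides down, was the fall with the smallest p, at 114 ± 2.81 CPM with the inhibitor and 182 ± 9.14 CPM with DMSO (SD, n = 3 each; adjusted p = 1.46e-05). Dck, the deoxycytidine kinase, rose with a log2 fold change of 0.65 (adjusted p = 0.0003), and Rrm2b, the alternative small subunit of ribonucleotide reductase, with 0.20 (adjusted p = 0.0314). The call of Rrm2b was lost with DESeq2 (adjusted p = 0.124), with no filter (0.0517) and without DMSO replicate 2 (0.0817), DMSO replicate 3 (0.0687) or inhibitor replicate 1 (0.068), 2 (0.0936) or 3 (0.0814), over a range of 0.00496 to 0.124. The ratio of Rrm2b to Rrm2 per kilobase was 0.456, 0.483 and 0.425 in the inhibitor libraries and 0.178, 0.214 and 0.179 in the DMSO libraries, without overlap.

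**Figure D3:**
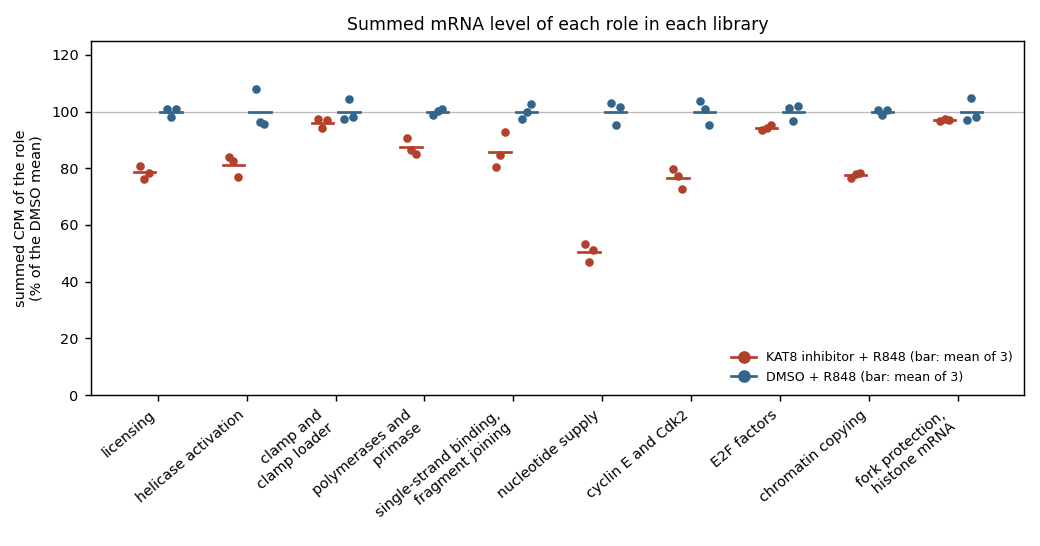
For each role, points give the summed CPM of its genes in each library as a percentage of the DMSO mean, with the inhibitor group left of the DMSO group and a bar at the mean of 3. Nucleotide supply stood at 50.4% of the DMSO mean, licensing at 78.5%, polymerases and primase at 87.4% and E2F factors at 94.3%.

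Cyclin E and Cdk2 form the kinase that drives entry into S phase, and all 3 genes fell. Ccne2 had 2.58, 2.56 and 2.49 CPM with the inhibitor and 5.52, 4.61 and 6.06 CPM with DMSO (log2 fold change −1.08, SE 0.15, adjusted p = 0.000454), with 17.4% of its exon length under Ints8 on the opposite strand. Ccne1 had 8.55, 8.31 and 9.08 CPM with the inhibitor and 10.99, 11.99 and 11.2 CPM with DMSO (log2 fold change −0.40, SE 0.089, adjusted p = 0.00605). The E-type cyclins were therefore both lower, with Ccne1 at 4.35, 4.27 and 4.79 times Ccne2 per kilobase in the inhibitor libraries and 2.61, 3.41 and 2.42 times in the DMSO libraries. Cdk2 had 25.7, 24.8 and 21.98 CPM with the inhibitor and 31.3, 30.01 and 26.8 CPM with DMSO, a fall of 0.28 on the log2 scale (adjusted p = 0.0272) with groups only just apart. The call of Cdk2 was lost without DMSO replicate 1 (0.0705), DMSO replicate 2 (0.0668), inhibitor replicate 2 (0.0521) or inhibitor replicate 3 (0.0846), and with library totals (0.136), over a range of 0.013 to 0.136.

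Among the 5 E2F factors 1 rose (20%, against 24.9% of all tested genes) and 2 fell (40%, against 26.5%). E2f1, an activator of S phase genes, rose, while E2f7 and E2f8, the atypical E2Fs that repress them, fell. E2f1 had 30.4, 31.4 and 29.2 CPM in the inhibitor libraries and 21.7, 21.9 and 23.6 CPM in the DMSO libraries (log2 fold change 0.44, SE 0.066, adjusted p = 0.000822). E2f7 had 3.12, 2.92 and 2.61 CPM with the inhibitor and 5.74, 5.78 and 4.71 CPM with DMSO (log2 fold change −0.90, SE 0.14, adjusted p = 0.0011). E2f8 had 7.16, 6.07 and 9.87 CPM with the inhibitor and 14.7, 14.8 and 16.2 CPM with DMSO (log2 fold change −0.99, SE 0.16, adjusted p = 0.00134). None of these 3 overlapped between groups. Exons of Gm2788 on the opposite strand cover 11.2% of E2f8. Per kilobase, E2f1 stood at 5.80, 6.93 and 4.39 times the sum of E2f7 and E2f8 with the inhibitor, against 2.06, 2.06 and 2.14 times with DMSO.

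The other activators did not pass. E2f3 had 41.04, 41.4 and 41.1 CPM with the inhibitor and 44.9, 42.1 and 43.3 CPM with DMSO (log2 fold change −0.076, adjusted p = 0.257), a small gap without overlap whose sign turned with library totals (0.033). E2f2, the least abundant of the 56 per kilobase, had 0.963, 1.36 and 1.37 CPM with the inhibitor and 2.43, 0.862 and 2.397 CPM with DMSO. DMSO replicate 2 lay below every inhibitor library, and without it E2f2 was lower (log2 fold change −0.98, adjusted p = 0.0134, range 0.0134 to 0.51). Among 15 related E2F, retinoblastoma and DREAM complex genes, 4 fell (26.7%), 3 rose (20%) and 8 did not pass. These shares were near the 26.5% and 24.9% of all tested genes. Mybl2, the B-Myb factor of late S phase, had the smallest p of the falls (4.15 ± 0.297 CPM with the inhibitor and 8.005 ± 0.222 CPM with DMSO, adjusted p = 0.000178). E2f5, an E2F of the repressive kind, had that of the rises (0.63, adjusted p = 0.000266). Rb1, the retinoblastoma protein that holds E2Fs in check, and E2f4 also rose, by 0.56 and 0.40 on the log2 scale.

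**Figure D4:**
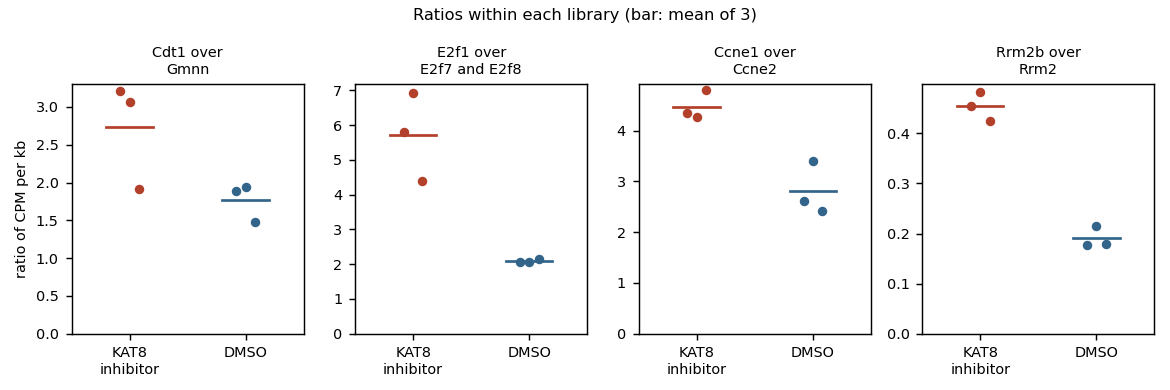
Points give the ratio of CPM per kilobase within each library for 4 pairs of genes or gene sums, with the inhibitor group left of the DMSO group, bars at the mean of 3, and axes that start at 0. E2f1 stood at 4.39 to 6.93 times E2f7 plus E2f8 with the inhibitor and at 2.06 to 2.14 times with DMSO, while the Cdt1 to Gmnn ratio overlapped.

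Genes that restore chromatin behind the fork fell in 3 of 4 cases. Uhrf1, which recognises half-methylated DNA and recruits the maintenance methyltransferase, had 14.1, 12.98 and 13.98 CPM with the inhibitor and 40.2, 38.98 and 40.4 CPM with DMSO (log2 fold change −1.54, SE 0.065, adjusted p = 1.03e-06). Dnmt1, that methyltransferase, had 121, 123 and 124.9 CPM with the inhibitor and 132, 131 and 133 CPM with DMSO. Its groups did not overlap, but the gap was small and did not pass (log2 fold change −0.10, SE 0.038, adjusted p = 0.0567). It was lower with the DESeq2 size factors (adjusted p = 0.0499) and with only genes of at least 5 CPM on average (0.0394), and its sign turned with library totals (0.0089), over a range of 0.0394 to 0.866. The partners Uhrf1 and Dnmt1 thus differed widely in size of change, a difference that was not tested.

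Chaf1a and Chaf1b encode subunits of CAF-1, which deposits histones on new DNA. Chaf1a had 11.5, 13.9 and 12.4 CPM with the inhibitor and 21.5, 21.4 and 20.3 CPM with DMSO (log2 fold change −0.74, SE 0.088, adjusted p = 0.000218). Ubxn6 on the opposite strand covers 52.5% of its exon length, and did not pass (−0.10, adjusted p = 0.285). Chaf1b had 12.7, 11.5 and 11.4 CPM with the inhibitor and 15.96, 13.8 and 15.7 CPM with DMSO (log2 fold change −0.35, adjusted p = 0.0137), a call lost with library totals (adjusted p = 0.0643) and without inhibitor replicate 3 (0.0501), over a range of 0.00958 to 0.0643. Of 8 further genes for chromatin copying and cohesion, 5 fell (62.5%, against 26.5% of all tested genes), 1 rose (12.5%, against 24.9%) and 2 did not pass. The histone chaperone Asf1b was the fall with the smallest p and its paralog Asf1a the rise, with log2 fold changes of −0.96 (adjusted p = 0.000391) and 0.53 (adjusted p = 0.00104).

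Clspn, or claspin, which passes the replication checkpoint signal to CHK1, had 5.04, 5.11 and 4.98 CPM with the inhibitor and 9.22, 9.18 and 7.45 CPM with DMSO. It fell without overlap (log2 fold change −0.77, SE 0.12, adjusted p = 0.000909). Tipin, a fork protection factor, had 14.8, 15.1 and 14.7 CPM with the inhibitor and 14.4, 15.8 and 16.2 CPM with DMSO and overlapped between groups (log2 fold change −0.060, adjusted p = 0.535; 0.050 with library totals). Its partner Timeless, outside the 56, fell (−0.78, adjusted p = 0.00388). Slbp, which binds the stem-loop of replication-dependent histone mRNAs, had 25.6, 25.7 and 25.97 CPM with the inhibitor and 22.03, 24.4 and 22.5 CPM with DMSO. These values did not overlap and did not pass (log2 fold change 0.16, adjusted p = 0.0668), though Slbp was higher without DMSO replicate 2 (adjusted p = 0.0394) and with library totals (0.00677), over a range of 0.00677 to 0.175.

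Set side by side, nucleotide supply had a median log2 fold change of −1.04, licensing −0.58, polymerases and primase −0.29 and the E2F factors −0.61, the last from genes that moved in opposite directions. The E2F median is the value of E2f2, which did not pass, and it was −0.38 without DMSO replicate 3, −0.41 without DMSO replicate 1, −0.85 without DMSO replicate 2 and −0.080 with only genes of at least 5 CPM on average, where E2f2 and E2f7 have no value. With library totals the median of polymerases and primase was −0.18. Calls in these roles were 5 of 5 lower, 9 of 12 lower with 1 higher, 5 of 9 lower with 1 higher, and 2 of 5 lower with 1 higher. Differences between roles were not tested, since the genes were chosen with results known and are not replicates of a role. With TMM scaling, summed levels in the inhibitor libraries were below all 3 DMSO libraries for licensing, polymerases, nucleotide supply and E2F factors. The same held for each of the other roles except fork protection and histone mRNA. The margin was narrow for the clamp and its loader, at 208.6 CPM in the highest inhibitor library and 209.2 CPM in the lowest DMSO library. It was also narrow for E2F factors, at 84.1 and 85.4 CPM. These sums were not made with library totals.

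**Figure D5:**
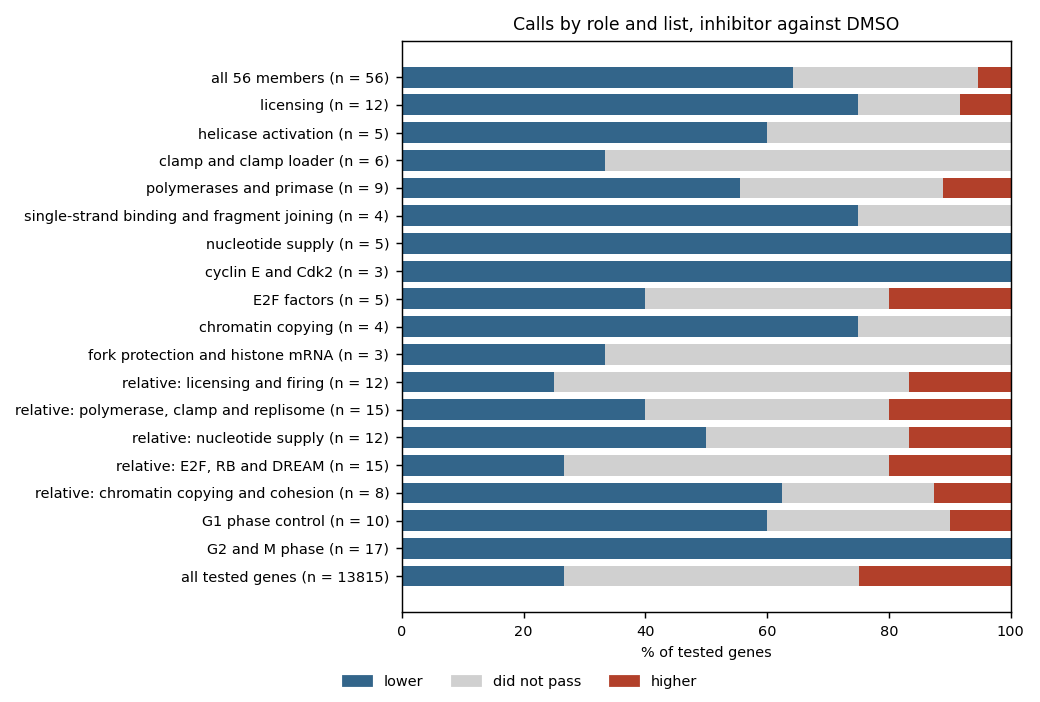
Bars give the percentage of tested genes that were lower (blue), did not pass (grey) or were higher (red) for the 56 genes, each role, the related lists and all 13815 tested genes. Nucleotide supply, cyclin E with Cdk2, and the G2 and M phase list are blue throughout, while all tested genes show 26.5% lower and 24.9% higher.

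Related replication genes outside the 56 were measured in the same fit. Over the 5 lists of such relatives, 24 of 62 were lower (38.7%), 11 were higher (17.7%) and 27 did not pass, with a median log2 fold change of −0.19. Of these 35 calls, 26 kept an adjusted p under 0.05 in every fit that had the gene, and 9 were lost in at least 1. Of 12 further licensing and firing genes, 3 fell (25%) and 2 rose (16.7%), so the share that fell was near that of all tested genes. With library totals 1 fell and 3 rose, where 20.6% of all tested genes fell and 35.4% rose. Dtl, an adaptor of the ligase that destroys CDT1 in S phase, was the fall with the smallest p (−0.72, adjusted p = 0.00493). Of 15 further polymerase, clamp and replisome genes, 6 fell (40%) and 3 rose (20%), with 4 falls under DESeq2 and 4 to 7 with a library left out. Pclaf, a PCNA-binding factor, fell 2.48-fold to 6.54 ± 0.549 CPM with the inhibitor, against 16.2 ± 0.808 CPM with DMSO (SD, n = 3 each; adjusted p = 1.55e-05), whereas Top1, the topoisomerase that relaxes DNA, rose to 215 ± 2.01 CPM with the inhibitor, against 141 ± 1.502 CPM with DMSO (adjusted p = 6.04e-06).

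Genes on either side of S phase were measured alongside. All 17 G2 and M phase genes of the list fell, with a median of −1.23 and a summed level at 41.9% of the DMSO mean, beside 79.7% for the 56 replication genes. Mki67 had the smallest p (81.8 ± 6.16 CPM with the inhibitor and 226 ± 13.97 CPM with DMSO, SD, n = 3 each). Of 10 genes of G1 control 6 fell (60%, against 26.5% of all tested genes), 1 rose (10%, against 24.9%) and 3 did not pass. Ccnd1, cyclin D1, which acts upstream of E2F release, had 19.4, 15.7 and 19.1 CPM with the inhibitor and 79.5, 91.7 and 78.5 CPM with DMSO (log2 fold change −2.20, SE 0.10, adjusted p = 1.37e-06). Cdkn1a, the inhibitor p21 of cyclin-dependent kinases, was the riser, with 562, 579 and 555 CPM with the inhibitor and 166, 192 and 189.8 CPM with DMSO (log2 fold change 1.63, SE 0.060, adjusted p = 6.35e-07). Whether the G2 and M list differed from the 56 genes was not tested.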

How the data were processed

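The authors deposited raw counts of reads for each Ensembl gene in 6 columns, 1 per library. The submitters' processing notes name mm10 and the tools HISAT2, edgeR and StringTie 1.3.0. The sources used here do not give the counter, its strand setting or how it treated shared reads. Symbols came from a reference table of Ensembl IDs, with GENCODE M21 names where it had none (401 of 34745 genes had neither), and exon lengths and overlaps from GENCODE M21 on the same build.

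Counts were tested with edgeR 4.0.16 (R 4.3.3; glmQLFit and glmQLFTest) across all 13815 genes that passed filterByExpr (minimum count 10), which held 99.9% of the counts, with TMM scaling and pretreatment as the only factor. Calls used a Benjamini-Hochberg adjusted p under 0.05 over all tested genes. The SE was taken as the size of the log2 fold change divided by the root of its F statistic. Level per kilobase is CPM over merged exon length. The steps were tested on simulated data. Library totals were 18441352 to 25089320 counts. Within a group, paired counts differed by 9.25 to 14.3 chi-square units per degree of freedom, and none was counted as a duplicate.

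Genes, lists and roles were chosen with earlier results of these data known. In each role the genes with the largest and smallest fold change, the most abundant per kilobase with DMSO and those that moved against the others are given per library. Further genes and ratios were chosen after their values were seen. Of each related list, the gene with the smallest p in each direction is named. Alternatives were library totals, DESeq2's size factors, no filter, DESeq2 1.42.0, a minimum mean of 5 CPM, leaving out each library, a stricter adjusted p (0.01), a replicate block, and, added after seeing the data, leaving out genes with exon overlaps. Results of the B cell markers and of some other marker genes are not reported here, so the marker lists given are not all that were examined.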

Additional observations from a re-analysis of the deposited data

How the results depend on the processing

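Of the 39 genes called among the 56, 27 kept their call and direction in every setting that had a value for them, although Ccne2, E2f7 and Gins1 have none under the minimum mean of 5 CPM. The 12 others are Cdk2, Chaf1b, Gins2, Gmnn, Mcm10, Orc1, Pola2, Pold2, Pole, Prim2, Rfc5 and Rpa2, of which Pole and Rfc5 lost it at an adjusted p under 0.01 alone. The number lower was 36 in the main fit (64.3%, against 26.5% of all tested genes). It was 31 to 35 with a library left out (55.4 to 62.5%, against 23 to 25.7%) and 36 with DESeq2 (64.3%, against 25%). It was 25 at an adjusted p under 0.01 (44.6%, against 19.8%) and 29 with library totals (51.8%, against 20.6%). Taking out the 10 genes whose exons overlap those of another gene by 10% or more left 29 lower. That count is from the unchanged main fit, over a smaller set of genes. The number higher was 3 in the main fit, 2 to 4 with a library left out (3.57 to 7.14%, against 20.3 to 23.3%) and 7 with library totals (12.5%, against 35.4%). Among all genes, 2257 were higher at an adjusted p under 0.01, against 3446. Signs turned only for genes that did not pass: with library totals Orc6 (0.072), E2f3 (0.033), Dnmt1 (0.0089) and Tipin (0.050), and Orc6 in 2 fits that leave out a library, over a range of −0.11 to 0.010. The cause was not tested. Deviations of same-numbered libraries correlated at −0.0337, −0.00297 and 0.0243. No pairing by replicate number was seen in them, although 3 libraries per group are too few to exclude it. With the replicate block 35 genes were lower and 3 higher, the difference being Pold2 (adjusted p = 0.0535), and inhibitor replicate 1 correlated best with DMSO replicate 2. E2f2, with 20 counts, had the lowest count of the 56 in any library.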
